A study of Homo sapiens with 24 samples.

Results

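The 40 genes described here are genes of the cell cycle, 18 of DNA replication and the passage into S phase and 22 of mitosis, chosen by name. The deposited tables divide gene models into bins, and counts were added up per gene, leaving detained introns out. Of the 40 genes, 39 had a gene group of their own among 13236 groups, and they held 664 of 164219 bins. BUB1B, a kinase of the spindle checkpoint, shares its group with the neighbouring gene PAK6 and was not analysed here, which leaves 21 mitosis genes. Detained introns, introns that stay in polyadenylated transcripts kept in the nucleus, are separate bins, and 27 of the 4769 in the tables lie in these genes. They fall in 10 replication and 9 mitosis genes.

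The cells were HEK293T, a human embryonic kidney line that carries a viral large T antigen known to bind the RB proteins. One experiment compared DMSO with OSMI-2, which inhibits the enzyme OGT, and the other compared DMSO with TMG, which inhibits the enzyme OGA (MGEA5 in the labels). OGT places the sugar O-GlcNAc on proteins in nucleus and cytoplasm, and OGA removes it. OSMI-2 was given at 10 µM and TMG at 5 µM, for 2 h or 6 h, and each drug and time had DMSO libraries of its own. All groups received new medium before treatment, and no step that synchronises the cells is described in the labels. The groups hold 3 libraries each, except OSMI-2 at 6 h, for which 2 were analysed. The labels do not say whether libraries came from separate cultures, so p-values measure the spread between these libraries, which may be technical.

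Replication begins when CDC6 and CDT1 load the MCM helicase on origins, and CDC45 and the GINS complex then turn it into an active motor. Cyclin E with its kinase, the phosphatase CDC25A and the transcription factor E2F1 drive the passage from G1 into S. Entry into mitosis needs cyclin B with CDK1, switched on by CDC25 phosphatases. Aurora and Polo kinases and the motor proteins build the spindle, and CDC20 and UBE2C serve the anaphase-promoting complex that ends mitosis. In textbook accounts, E2F sites in the promoters of G1/S genes and the CHR element with CCAAT boxes in those of G2/M genes time the expression of these lists to their phases. Bulk RNA gives 1 value for all cells of a library, so fewer cells in a phase and less RNA per cell cannot be told apart.

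The promoters of the lists differ in these elements, and 5 are shown because their genes carry the results below or are textbook examples. RefSeq promoter windows (GRCh38.p14, 250 bases before and 50 bases from the start of transcription on) matched 33 of the 40 genes. The words searched on both strands were TTTCCCGC, TTTCGCGC, TTTGCCGC and TTTGGCGC for E2F, TTTGAA and TTCGAA for CHR, and CCAAT. An E2F word stood in 11 of 15 replication genes (73.3%) and 2 of 18 mitosis genes (11.1%), against 3.99% of all 27305 genes with a window. A CHR word stood in 2 of 15 replication genes (13.3%) and 13 of 18 mitosis genes (72.2%), against 19.5% of all genes. CHR and CCAAT stood together in 12 mitosis genes (66.7%), 2 replication genes (13.3%) and 7.85% of all genes. These are matches of letters and were not tested as binding sites. The stretches run from 120 bases before the start up to the start, 5′ to 3′ on the gene's strand, at chr16:88803669-88803788 (CDT1, plus strand), chr20:33686386-33686505 (E2F1, minus), chr16:23678769-23678888 (PLK1, plus), chr15:59105026-59105145 (CCNB2, plus) and chr1:43358861-43358980 (CDC20, plus). Capitals mark the words, and a word on the opposite strand appears as its reverse complement.
CDT1: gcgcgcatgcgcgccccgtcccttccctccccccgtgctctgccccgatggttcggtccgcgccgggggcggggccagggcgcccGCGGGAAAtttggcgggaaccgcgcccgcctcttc
E2F1: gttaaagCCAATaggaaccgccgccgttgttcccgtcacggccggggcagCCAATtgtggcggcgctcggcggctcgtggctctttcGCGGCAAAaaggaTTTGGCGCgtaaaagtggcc
PLK1: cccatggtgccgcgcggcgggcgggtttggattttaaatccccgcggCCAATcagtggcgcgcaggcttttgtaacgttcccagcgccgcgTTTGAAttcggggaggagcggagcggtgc
CCNB2: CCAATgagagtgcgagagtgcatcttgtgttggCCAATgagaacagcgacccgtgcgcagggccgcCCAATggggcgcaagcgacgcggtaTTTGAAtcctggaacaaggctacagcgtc
CDC20: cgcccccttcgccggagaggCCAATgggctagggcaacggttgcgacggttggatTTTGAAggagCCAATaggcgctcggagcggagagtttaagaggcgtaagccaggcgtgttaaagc

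Library totals ran from 41.7 to 100.2 M counts in the OSMI-2 experiment and from 39.5 to 56.4 M in the TMG experiment. The slope of log2 gene counts on the GC content of transcripts, per 10 points of GC, was 0.835 to 1.15 in 10 of the 11 libraries of the OSMI-2 experiment and 0.425 in library a of DMSO at 6 h. In the TMG experiment it was -0.542 to -0.236, so levels were not compared between experiments. Detained introns held 0.756% to 1.21% of counts in DMSO at 6 h of the OSMI-2 experiment, 0.232% to 0.328% in its other groups, and 0.377% to 0.669% in the TMG experiment. The 6 markers fixed for HEK293T were all counted, from VIM at 306 to 787 CPM (counts per 1000000) down to NEFM at 0.30 to 2.2 CPM. Of 8 markers of other cell types only COL1A1 was counted, at 6.28 to 20.4 CPM, above NEFM in every library. Library a of DMSO at 6 h of the OSMI-2 experiment thus stands apart, and values without it are given beside the results it changes.

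Replication genes outweighed mitosis genes in every library. Replication genes held 0.464% to 0.566% of all counts and mitosis genes 0.211% to 0.460%. Per kilobase of exon, in DMSO at 2 h of the OSMI-2 experiment, the median gene stood at 68.7 CPM for replication and 16.9 CPM for mitosis. In the TMG experiment the medians were 90.9 and 69.0 CPM. These levels were not corrected for the GC slope, which may enter the gap between the lists and the order of genes within each experiment. Its part in them was not tested. The order was led by MCM7, a subunit of the helicase, at 328 CPM per kilobase (libraries 314 to 343), CDC20 at 328 (307 to 358) and UBE2C at 313 (298 to 333), which did not differ beyond their spread. It ended with CENPE, a kinetochore motor, at 1.29 (0.993 to 1.45) and CCNE2, a cyclin E, at 0.907 (0.666 to 1.10). In DMSO at 2 h of the TMG experiment PCNA, the sliding clamp of DNA polymerase, led at 434 CPM per kilobase (425 to 441), above MCM7 at 209 (200 to 220). CCNE2 again came last at 11.1 (10.6 to 12), beside CENPE at 11.7 (11.6 to 11.9).

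The ratio of mitosis to replication counts was 0.470, 0.477 and 0.488 in DMSO and 0.473, 0.461 and 0.492 in OSMI-2 at 2 h. At 6 h it was 0.489, 0.398 and 0.391 in DMSO and 0.558 and 0.582 in OSMI-2. Both OSMI-2 libraries at 6 h lay above all 9 other libraries of the experiment. In the TMG experiment the ratio was 0.737, 0.736 and 0.752 in DMSO and 0.775, 0.802 and 0.800 in TMG at 2 h. At 6 h it was 0.752, 0.812 and 0.824 in DMSO and 0.811, 0.806 and 0.813 in TMG, where the groups overlapped.

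**Figure D1:**
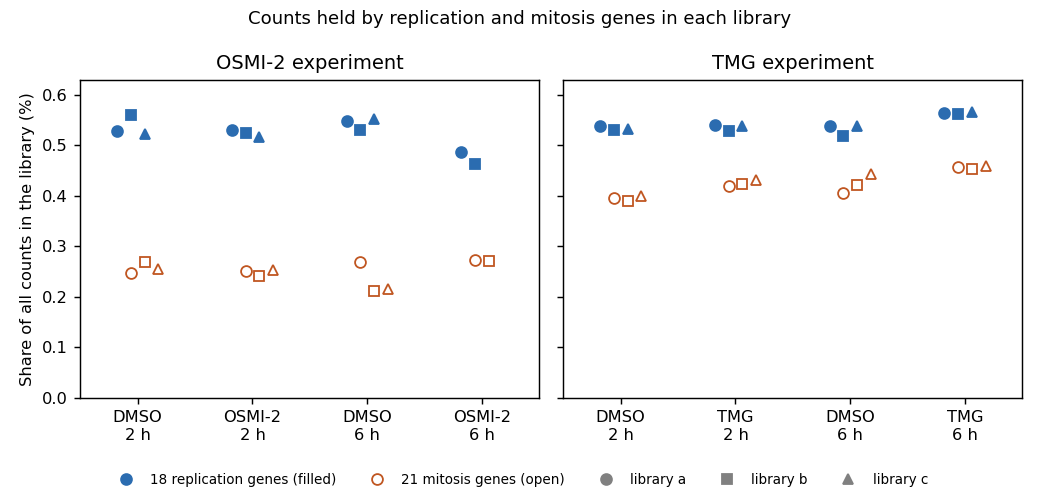
Share of each library's counts (%, vertical axis) held by the 18 replication genes (filled) and the 21 mitosis genes (open), with 1 point per library (circle a, square b, triangle c), by group along the horizontal axis. In the OSMI-2 libraries at 6 h the replication share was 0.464% and 0.487%, below the other libraries of that experiment, while the mitosis share was 0.270% and 0.272%, above the other libraries of that experiment.

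OSMI-2 at 2 h changed no cell cycle gene past the test. None of 18 replication and 21 mitosis genes passed an adjusted p of 0.05 in edgeR's quasi-likelihood test (0 of 39, against 0% of 12343 genes called). None had an unadjusted p under 0.05 in it, against 160 of all genes, and DESeq2 called none of the 39. With no gene called at all, this does not show that the 39 were unchanged. Of their log2 fold changes 28 were negative, against 6465 over all genes. The median log2 fold change was -0.13 for replication genes and -0.17 for mitosis genes, against -0.01 for all genes, with a range of -0.54 to 0.08 over both lists. No gene had all OSMI-2 libraries above or all below the DMSO libraries, against 2.45% and 2.11% of all genes.

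The smallest p of the replication list belonged to RRM1, the large subunit of ribonucleotide reductase, which makes DNA precursors. It stood at 128, 138 and 69.5 CPM in DMSO and 78.2, 92.5 and 60.2 CPM in OSMI-2 at 2 h (log2 fold change -0.54 ± 0.25 SE, unadjusted p = 0.055 in edgeR). CDC6, the loading factor, followed with 75.5, 74.4 and 45.8 CPM against 49.1, 59.9 and 41.4 CPM (-0.38). DMSO library c lay low for both genes, and the groups overlapped.

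Of the mitosis list, TTK, a kinase of the spindle checkpoint, stood at 15.7, 10.4 and 9.92 CPM in DMSO and 8.2, 8.97 and 10.6 CPM in OSMI-2 at 2 h (-0.37). BUB1, another checkpoint kinase, stood at 47.4, 49.3 and 36.0 CPM against 37.2, 37.8 and 34.7 CPM (-0.28). Among the genes followed in all comparisons, the log2 fold changes were 0.03 for E2F1, -0.20 for CCNE2, 0.07 for MCM5, 0.08 for PCNA and -0.15 for RRM2. They were -0.31 for CCNB1, 0.03 for CDC20, 0.06 for PLK1, -0.24 for TOP2A and -0.24 for AURKA. No gene of the 5 further lists of the pathway (118 genes) passed the test.

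OSMI-2 at 6 h changed 2 of the 39 genes past the test, in opposite directions: CDT1 rose 2.34-fold and CDC25C fell by 1.41 on the log2 scale. Of all genes 4.94% were called, 2.57% higher and 2.37% lower. CDT1, which loads the helicase and is normally held down outside G1, stood at 95.7, 178 and 202 CPM in DMSO and 345 and 397 CPM in OSMI-2 (log2 fold change 1.23 ± 0.32 SE, adjusted p = 0.0128 in edgeR). CDC25C, the phosphatase that activates CDK1 at the entry into mitosis, stood at 30.9, 23.8 and 37.0 CPM in DMSO and 13.1 and 9.88 CPM in OSMI-2 (-1.41 ± 0.35 SE, adjusted p = 0.00839). The groups did not overlap for either gene. CDC25C overlaps FAM53C on the opposite strand, and whether the counting used strand is not given in the sources used here, so its counts are less certain. The same holds for 10 others of the 39 genes, among them PLK1 (ERN2), CCNA2 (EXOSC9), KIF20A (CDC23), RRM1 and MCM2. No call was left without either of the OSMI-2 libraries, and CDT1 missed the threshold when libraries were scaled over genes only (adjusted p = 0.051).

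Other genes moved further than most without passing the test. PLK1, the Polo kinase of mitosis, stood at 161, 283 and 291 CPM in DMSO and 491 and 479 CPM in OSMI-2 (0.99 ± 0.32 SE, adjusted p = 0.052 in edgeR). CDC25B, the phosphatase that starts CDK1 activation, stood at 77.1, 122 and 128 CPM against 188 and 201 CPM (0.83, adjusted p = 0.0819). CDC45, part of the active helicase, stood at 230.0, 268 and 330.2 CPM against 169 and 135 CPM (-0.86, adjusted p = 0.0902). For these 3 genes all OSMI-2 libraries lay outside the DMSO range. PCNA stood at 188, 112 and 121 CPM against 200.5 and 240.0 CPM (0.65, adjusted p = 0.183), and CDC20 at 245, 409 and 458 CPM against 672 and 599.8 CPM (0.78, adjusted p = 0.137). DMSO library a was the lowest of its group for CDT1, PLK1, CDC25B, CDC45 and CDC20, and the highest for PCNA.

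The list medians differed: -0.07 for replication genes and 0.41 for mitosis genes, against 0.15 for all genes, and no test compares the lists. By role, the median was -0.03 for the 10 licensing and helicase genes, 0.10 for the 4 genes of the fork and nucleotide supply and -0.19 for the 4 G1/S regulators. It was 0.17 for the 6 cyclins, CDK1 and phosphatases, 0.41 for the 5 kinases and checkpoint genes, 0.74 for CDC20 and UBE2C, and 0.35 for the 8 motors, spindle and chromosome genes. Log2 fold changes of the other genes followed throughout were 0.41 for E2F1, -0.17 for CCNE2, 0.56 for MCM5, 0.19 for RRM2, 0.51 for CCNB1, 0.70 for TOP2A and 0.53 for AURKA.

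The OSMI-2 libraries lay above all DMSO libraries in 5 replication and 8 mitosis genes, against 32.2% of all genes, and below them in 2 and 1, against 14.9% of all genes. The count of mitosis genes above depends on DMSO library a, the library with the low GC slope. Without it, 19 of 21 mitosis genes lay above and 1 below, and 7 of 18 replication genes lay above and 3 below, against 51.1% and 21.6% of all genes. In the test without it, 17 mitosis genes rose and 1 fell, and 4 replication genes rose and 3 fell, while 4247 genes rose and 1021 fell in all (42.4% called). With the GC trend removed from each library, 7 mitosis genes rose and 1 fell, and 2 replication genes rose and 2 fell (22.1% of all genes called). Scaling over genes only moved the median of all genes from 0.15 to -0.09, and then only CDC45 (-1.09, adjusted p = 0.030) and CDC25C (-1.64, adjusted p = 0.0057) passed, both lower (4.13% of all genes called). With all libraries of both experiments in 1 fit, 18 of the 39 rose and 3 fell (47% of all genes called).

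**Figure D2:**
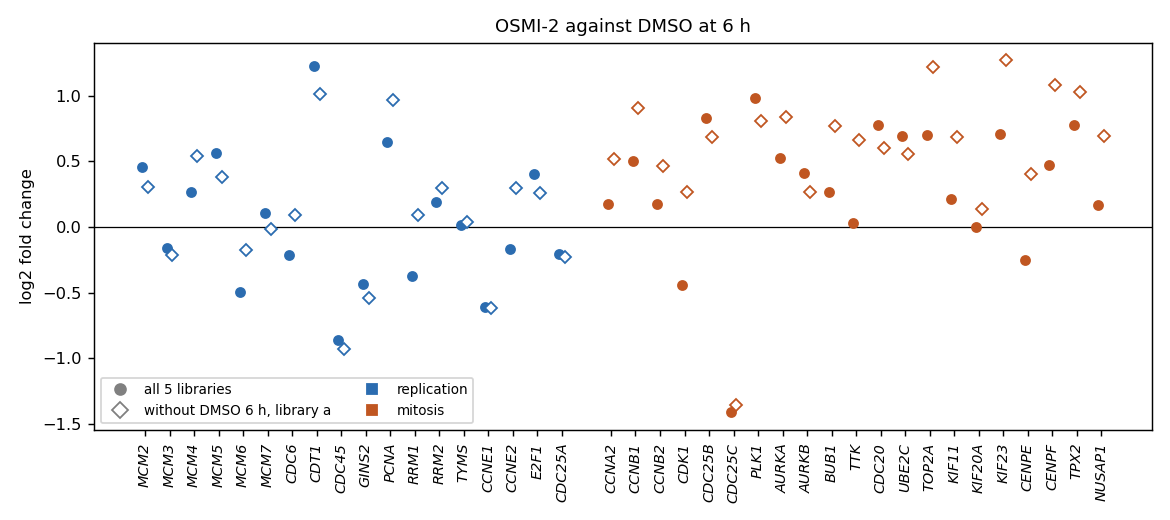
Log2 fold change (vertical axis) of each of the 39 genes, OSMI-2 against DMSO at 6 h, with all 5 libraries (filled circles) and without library a of DMSO at 6 h (open diamonds), replication genes in blue and mitosis genes in orange. Without that library TOP2A moved from 0.70 to 1.22 and CDK1 from -0.44 to 0.27, while CDC25C stayed near its value (-1.41 and -1.35), and with libraries scaled over genes only the median of all genes is -0.09 in place of 0.15.

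Of the 5 further lists, 2 of 118 genes passed at 6 h, both from the G1 cyclins and their kinases. CKS1B, a small partner of cyclin-dependent kinases, stood at 85.3, 95.9 and 132 CPM in DMSO and 54.1 and 31.9 CPM in OSMI-2 (-1.28, adjusted p = 0.00816 in edgeR). CCND3, a cyclin D, stood at 36.1, 71.3 and 74.7 CPM against 117 and 126 CPM (1.0, adjusted p = 0.0312). FOXM1, the transcription factor of G2/M genes, stood at 132, 219.5 and 225 CPM against 380.2 and 365 CPM (0.96, adjusted p = 0.0543). MYBL2, a partner of the DREAM core at G2/M promoters, had a log2 fold change of 0.77 (adjusted p = 0.16) and E2F8, a repressor of E2F targets, one of 0.93 (adjusted p = 0.097). CCND1 stood at 0.24, the CDK inhibitor CDKN1A at 0.10 and E2F7 at 0.06 on that scale.

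TMG at 2 h raised 2 of 39 genes slightly, both proteins of the kinetochore. The share of genes called was 7.91%, of which 1.25% higher and 6.67% lower. CENPE stood at 94.1, 91.8 and 93.0 CPM in DMSO and 108, 115 and 108 CPM in TMG (log2 fold change 0.25 ± 0.05 SE, adjusted p = 0.00347 in edgeR). CENPF, a large kinetochore protein made in G2, stood at 143, 151 and 157 CPM against 184, 175 and 177 CPM (0.25 ± 0.05 SE, adjusted p = 0.00377). The groups did not overlap for either. CENPE missed the threshold without TMG library b (adjusted p = 0.052), and with all libraries of both experiments in 1 fit neither gene passed (0% of all genes called).

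No replication gene passed at 2 h of TMG. MCM2, a helicase subunit, stood at 407, 399 and 397 CPM in DMSO and 392, 360.0 and 373 CPM in TMG (-0.10, unadjusted p = 0.065 in edgeR), and MCM7 at 1038, 933 and 909 CPM against 925, 865 and 902 CPM (-0.10). The list medians were -0.04 for replication and 0.05 for mitosis genes, against -0.03 for all genes. TMG libraries lay above all DMSO libraries in 1 replication and 7 mitosis genes, against 8.13% of all genes, and below in 2 replication genes, against 18.8%. All 8 motors, spindle and chromosome genes had a positive log2 fold change (median 0.10), against 5010 of all 12361 genes. The values were -0.06 for E2F1, 0.01 for CCNE2, -0.07 for MCM5, 0.03 for PCNA, 0.01 for RRM2, -0.03 for CCNB1, -0.06 for CDC20, 0.02 for PLK1, 0.10 for TOP2A and 0.08 for AURKA. The GC slope was -0.351 to -0.275 in TMG and -0.28 to -0.236 in DMSO at 2 h. Values with the GC trend removed are not given here for this comparison. The part of the slope in these small changes, those of CENPE and CENPF included, is thus left undescribed.

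In the further lists 5 of 40 mitosis genes passed at 2 h of TMG, 4 higher, among them WEE1, the kinase that holds CDK1 inactive (0.23, adjusted p = 0.0102 in edgeR), and KIF14, a motor of cytokinesis (0.22, adjusted p = 0.0153). RFC1, of the clamp loader, also rose (0.18, adjusted p = 0.0289). FOXM1 (-0.01), MYBL2 (-0.11), CCND1 (0.13), CDKN1A (-0.19), E2F7 (0.07) and E2F8 (0.16) did not pass.

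TMG at 6 h raised CDC6, TTK and CCNA2, 3 of the 39 genes, by less than 0.35 on the log2 scale. Of all genes 6.03% were called, 1.19% higher and 4.84% lower. CDC6 stood at 126, 123 and 132 CPM in DMSO and 158, 145 and 152 CPM in TMG (log2 fold change 0.26 ± 0.06 SE, adjusted p = 0.0206 in edgeR). TTK stood at 134, 135 and 150.4 CPM against 181, 172 and 179 CPM (0.34 ± 0.06 SE, adjusted p = 0.00539). CCNA2, the cyclin of S phase and G2, stood at 203, 205 and 215 CPM against 239, 233 and 240.2 CPM (0.19 ± 0.05 SE, adjusted p = 0.0458). In all 3 genes every TMG library lay above every DMSO library. TTK kept its call without any single library, while CDC6 and CCNA2 lost theirs without each TMG library and without DMSO library b. Without DMSO library a 13 of the 39 passed, and the share of all genes called in that fit is not given here.

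Of the 39 log2 fold changes 36 were positive, against 5206 of 12103 over all genes. In edgeR 15 of the 39 had an unadjusted p under 0.05, against 2721 of all genes. The medians were 0.08 for replication and 0.13 for mitosis genes, against -0.03 for all genes. TMG libraries lay above all DMSO libraries in 4 replication and 12 mitosis genes, against 10.1% of all genes, and below in none, against 17.6%. PCNA stood at 568, 544 and 587 CPM against 614, 638 and 642 CPM (0.16, adjusted p = 0.112 in edgeR), and CDC45 had a log2 fold change of 0.15. The values were 0.13 for MCM5, 0.10 for RRM2, 0.03 for E2F1, 0.14 for CCNE2, 0.12 for CCNB1, 0.07 for CDC20, 0.06 for PLK1, 0.15 for TOP2A and 0.16 for AURKA. The GC slope was -0.542 to -0.496 in TMG and -0.503 to -0.334 in DMSO, and its part in these values was not tested beyond the removal of the trend. With the trend removed, 11 replication and 12 mitosis genes rose and none fell, while over all genes 826 rose and 771 fell (13.2% called). When all 23 libraries were fitted together, none of the 39 passed (0.0157% of all genes called).

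In the further lists GMNN, the inhibitor of CDT1, rose (0.20, adjusted p = 0.0478 in edgeR), as did CKS2 (0.25, adjusted p = 0.0281), NCAPG, a condensin subunit (0.24, adjusted p = 0.0217), and WEE1 (0.27, adjusted p = 0.0226). PRIM1, the primase subunit that starts new DNA strands, fell by 0.42 (adjusted p = 0.00317), from 58.5, 60.7 and 65.0 CPM to 44.9, 46.1 and 47.0 CPM. FOXM1 (0.00), MYBL2 (0.00), CDKN1A (0.01), CCND1 (0.24), E2F7 (0.12) and E2F8 (0.10) did not pass.

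**Figure D3:**
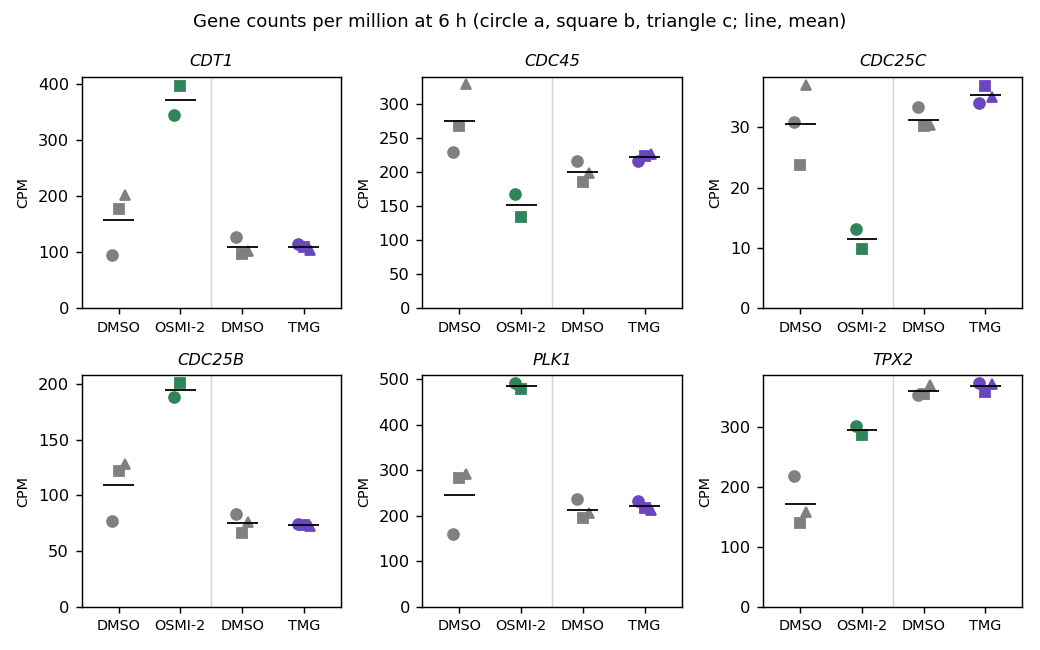
CPM (vertical axes, from 0) at 6 h of 6 genes whose responses to the drugs differed past the test, with 1 point per library (circle a, square b, triangle c) and a line at the group mean. They are 6 of 39 genes, and 19.9% of all genes were called in that test. CDT1 stood at 345 and 397 CPM in OSMI-2 against 95.7 to 202 CPM in its DMSO, and at 105 to 115 CPM in TMG against 97.5 to 127 CPM in its DMSO.

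The responses to the drugs differed at 6 h in 6 of the 39 genes, by a test of the difference of differences in edgeR. That is a smaller share than over all genes, of which 19.9% were called, 16.9% higher and 2.97% lower. OSMI-2 exceeded TMG for CDT1 by 1.37 ± 0.33 SE on the log2 scale (adjusted p = 0.0171), PLK1 by 1.08 ± 0.29 (0.0229), CDC25B by 1.02 ± 0.27 (0.0226) and TPX2, which activates Aurora A on the spindle, by 0.90 ± 0.25 (0.0251). It lay below TMG for CDC25C, at -1.43 ± 0.27 (0.0109), and CDC45, at -0.86 ± 0.25 (0.0286). The spread of each gene was estimated here over the libraries of both experiments together. The errors and p-values therefore also draw on the TMG experiment, whose replicates mostly differed less. PLK1, CDC25B, TPX2 and CDC45 did not pass for OSMI-2 against its own DMSO. TPX2 stood at 219, 140.2 and 159 CPM in DMSO and 303 and 288 CPM in OSMI-2, and at 355, 356 and 371 CPM in DMSO and 375, 359 and 373 CPM in TMG. The median difference was 0.03 for replication genes, 0.51 for mitosis genes and 0.36 for all genes. Scaling over genes only left 1 gene higher and 2 lower (8.25% of all genes called). The drugs, doses and experiments differ together, so the drug and the experiment cannot be told apart in this difference. Without OSMI-2 library b none passed (0.174% of all genes called), and without DMSO library a at 6 h of the OSMI-2 experiment 33 did (75% called).

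At 2 h no gene of the 39 differed past the test between the drugs (0% of 12608 genes were called). None had an unadjusted p under 0.05 in edgeR, against 1025 of all genes. The OSMI-2 response at 6 h did not differ past the threshold from that at 2 h for any of the 39 (0.111% of all genes called). In edgeR 9 of them had an unadjusted p under 0.05, against 1847 of all 12627 genes. The TMG responses did not differ past the threshold between the times either (0.0242% called). Here 10 had an unadjusted p under 0.05 in edgeR, against 1034 of all 12399 genes. DESeq2 called none of the 39 in these 3 tests. Without DMSO library a at 6 h of the OSMI-2 experiment, 11 differed between the OSMI-2 times (12.8% of all genes called).

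The genes also differed between the times within DMSO. The DMSO libraries at each time are also the controls of the drug comparisons above, so a low or high DMSO value enters both. In the OSMI-2 experiment 12 of 39 genes fell from 2 h to 6 h and 1 rose, while 18.5% of all genes were called, 4.59% higher and 14% lower. CPM values are scaled within each comparison, so the same library reads somewhat differently here than above. The median was -0.55 for replication and -0.54 for mitosis genes, against -0.25 for all genes.

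The 5 replication genes that fell were PCNA, CDT1, RRM2, CDC6 and MCM5. PCNA went from 285, 225 and 235 CPM at 2 h to 169, 103 and 111 CPM at 6 h (log2 fold change -0.96 ± 0.27 SE, adjusted p = 0.0135 in edgeR). CDT1 went from 276, 234 and 342 CPM to 86.1, 164 and 186 CPM (-0.97 ± 0.28 SE, adjusted p = 0.0179). RRM2, the small subunit of ribonucleotide reductase, went from 292, 314 and 214 CPM to 156, 113 and 171 CPM (-0.90, adjusted p = 0.0190). CDC6 had a log2 fold change of -0.83 (adjusted p = 0.0277) and MCM5 one of -0.87 (adjusted p = 0.0345). The times did not overlap in any of the 5. All 6 h libraries lay below all 2 h libraries in 8 replication and 9 mitosis genes, against 29.2% of all genes, and above in 0 and 1, against 10.5%. PCNA and RRM2, and UBE2C, CDC20, AURKA and CCNB2 below, have pseudogene copies in the annotation, so their counts are less certain, as are those of TYMS and BUB1.

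The 7 mitosis genes that fell were CCNB1, UBE2C, CDC20, AURKA, CCNB2, CCNA2 and PLK1. CCNB1, cyclin B1, fell furthest, from 245, 238 and 147 CPM to 126, 60.8 and 80.7 CPM (-1.23 ± 0.28 SE, adjusted p = 0.00404 in edgeR). CDC20 went from 639.6, 622 and 760.4 CPM to 221, 377 and 422 CPM (-0.99 ± 0.29 SE, adjusted p = 0.0165). The other 5 fell by 0.82 (PLK1) to 0.95 (UBE2C), with AURKA at -0.91. CCNA2 was the 1 gene of the 7 whose times overlapped. CENPE rose by 0.91 (adjusted p = 0.0389), from 9.55, 13.0 and 14.1 CPM to 38.6, 15.1 and 15.4 CPM, and that rise rests on library a (0.34, adjusted p = 0.18, without it).

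E2F1 (-0.57), CCNE2 (0.05) and TOP2A (-0.35) did not pass. These falls depend on the scaling: with libraries scaled over genes only, the median of all genes moved to 0.04, no cell cycle gene fell past the test and CENPE alone rose (9.16% of all genes called). The list medians relative to that of all genes changed little, from -0.295 to -0.308 for replication and from -0.284 to -0.275 for mitosis. Without DMSO library a at 2 h only CCNB1 passed (4.15% of all genes called). Without library a at 6 h, 6 replication and 16 mitosis genes fell (37.2% called). With all libraries of both experiments in 1 fit, 24 of the 39 fell and 1 rose (48.2% called). Of the further lists 15 of 118 genes fell and 1 rose, among them GMNN (-1.05), TK1, the thymidine kinase (-1.03), MAD2L1, a checkpoint protein (-1.18), and CCND1 (-0.73, adjusted p = 0.0484 in edgeR), while KIF14 rose (1.25), with library a at 6 h the highest. FOXM1 (-0.63), MYBL2 (-0.77), CDKN1A (0.16), E2F7 (-0.06) and E2F8 (-0.07) did not pass.

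In the TMG experiment the same interval gave smaller and mixed changes: 8 of 39 genes rose and 11 fell, while 45.9% of all genes were called, 16.3% higher and 29.6% lower. With all libraries of both experiments in 1 fit, 2 of the 39 rose and none fell (14.4% of all genes called). Of the replication genes 7 fell and 1 rose. TYMS, thymidylate synthase, went from 174, 162 and 169.5 CPM to 141, 119 and 133 CPM (-0.37 ± 0.07 SE, adjusted p = 0.000279 in edgeR). CDC45 (-0.32), CDC6 (-0.28), CCNE1 (-0.27), MCM7 (-0.22), CDC25A (-0.20) and RRM2 (-0.19) fell too. MCM6, a helicase subunit, rose from 332, 315 and 323 CPM to 380.0, 374 and 398 CPM (0.25 ± 0.07 SE, adjusted p = 0.00463). TYMS and MCM7 overlap genes on the opposite strand and are less certain for the reason given for CDC25C.

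Of the mitosis genes 7 rose and 4 fell. CENPF rose furthest, from 144, 152 and 158 CPM to 214, 244 and 261 CPM (0.66 ± 0.08 SE, adjusted p = 2.38e-07 in edgeR). KIF20A, a motor of cytokinesis, went from 102, 101 and 104 CPM to 138, 132 and 145 CPM (0.43 ± 0.07 SE, adjusted p = 2.34e-05). CENPE (0.36), TTK (0.31), BUB1 (0.25), KIF11 (0.23) and TPX2 (0.23) also rose. UBE2C fell from 203, 186 and 189.9 CPM to 158, 131 and 139 CPM (-0.44 ± 0.08 SE, adjusted p = 4.81e-05), and NUSAP1, a spindle protein, from 205, 197 and 214 CPM to 155, 156 and 172 CPM (-0.35, adjusted p = 0.000254). AURKB (-0.33) and CDK1 (-0.25) fell as well. The times did not overlap in any of these 11 genes. The 6 h libraries lay above all 2 h libraries in 1 replication and 7 mitosis genes, against 20.2% of all genes, and below in 9 and 4, against 33.2%.

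By role, 5 of the 8 motors, spindle and chromosome genes rose and 1 fell (median 0.23), while of the 6 cyclins, CDK1 and phosphatases only CDK1 passed (median -0.02). The other genes followed throughout did not pass: E2F1 (0.08), CCNE2 (0.07), MCM5 (0.17), PCNA (-0.11), CCNB1 (-0.03), CDC20 (-0.09), PLK1 (0.15), TOP2A (-0.04) and AURKA (0.00). The GC slope was -0.28 to -0.236 at 2 h and -0.503 to -0.334 at 6 h. With the GC trend removed, 7 replication genes rose and 4 fell, and 10 mitosis genes rose and 3 fell (51.2% of all genes called), and CDC20 turned to 0.16. With scaling over genes only, 11 of the 39 rose and 7 fell (47.4% called).

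Of the further lists, 19 of 40 mitosis genes rose and 2 fell in this comparison, where 16.3% of all genes rose and 29.6% fell. The other lists were mixed: 4 of 19 origin factors rose and 2 fell, 3 of 25 polymerases and fork factors rose and 7 fell, 3 of 18 E2F, RB and DREAM regulators rose and 5 fell, and 2 of 16 G1 cyclins, kinases and inhibitors rose and 6 fell. Among the mitosis genes that rose were ASPM (0.59) and SGOL2 (0.55), which act at spindle poles and centromeres. WDHD1, a replication factor at the fork, rose (0.60), and LIG1, the ligase that joins new strands, fell by 0.49, as did POLD2, a polymerase subunit. MYBL2 fell from 458.8, 440.5 and 441 CPM to 317, 256 and 274 CPM (-0.66 ± 0.08 SE, adjusted p = 2.66e-07 in edgeR). CDKN1A (-0.47), CCND1 (-0.35) and FOXM1 (-0.19) fell and E2F8 (0.33) rose, while E2F7 (0.15) did not pass. FOXM1 turned to 0.026 with the GC trend removed.

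**Figure D4:**
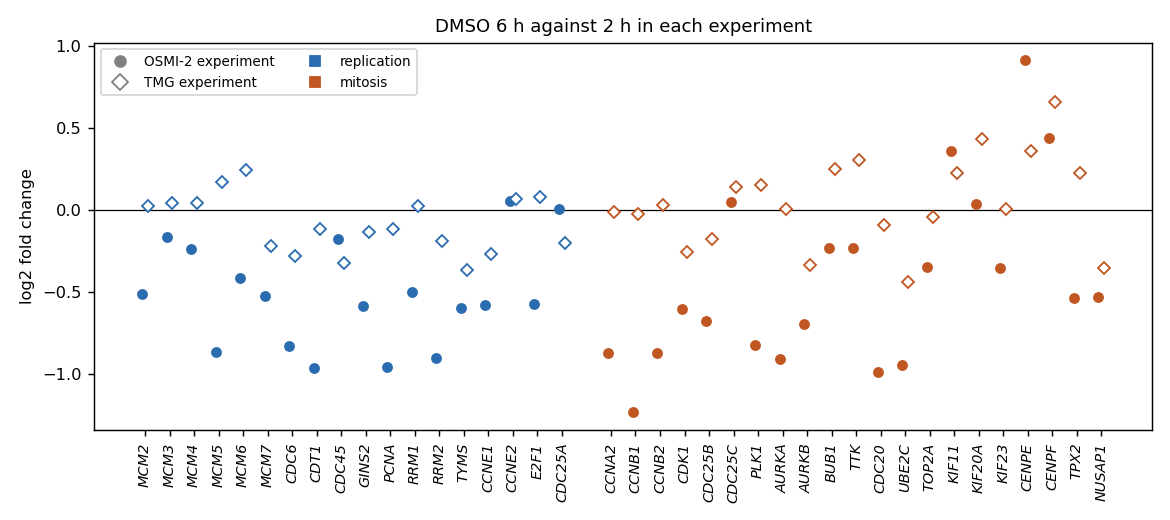
Log2 fold change (vertical axis) of each of the 39 genes from 2 h to 6 h in DMSO, in the OSMI-2 experiment (filled circles) and the TMG experiment (open diamonds), replication genes in blue and mitosis genes in orange. In the OSMI-2 experiment 32 of 39 values lay below 0, with scaling over genes and introns together, against 8230 of all 12343 genes. In the TMG experiment 19 of 39 lay below 0, against 7291 of all 12294 genes.

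Detained introns of these genes were described apart from the genes. With OSMI-2 at 6 h, where 2 of 39 genes passed, 24 of the 26 introns tested fell (15 of 15 in replication and 9 of 11 in mitosis genes), against 86.9% of all introns called and 86.3% lower. Their median log2 fold change was -1.50 in replication genes and -1.53 in mitosis genes, against -1.55 for all introns. Names give the gene and the bin number, and positions are on hg19. CDC6_E013, a bin of 15 bases, had too few counts to test.

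In replication genes the intron with the smallest p was CDC45_E013 (chr22:19493005-19494908, plus strand), at 3.47, 3.06 and 2.55 CPM in DMSO and 0.523 and 0.469 CPM in OSMI-2 (log2 fold change -2.61 ± 0.34 SE, adjusted p = 1.88e-12 in edgeR). MCM3_E013, in a helicase subunit gene (chr6:52138715-52141065, minus strand), stood at 5.31, 4.26 and 3.78 CPM against 0.963 and 0.871 CPM (-2.28, adjusted p = 2.29e-11). CDC45_E019 (-2.26), MCM4_E017 (-2.26) and MCM6_E007 (-1.74) followed. The gene CDC45 had a log2 fold change of -0.86 in the same libraries, and MCM3 one of -0.16.

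In mitosis genes CDC25C_E005 (chr5:137622957-137625189, minus strand) fell furthest, from 0.793, 0.522 and 0.717 CPM to 0.0837 and 0.0536 CPM (-3.31 ± 0.55 SE, adjusted p = 2.42e-08 in edgeR). Both OSMI-2 values of this intron are very low, so the size of its fall is less certain. The gene CDC25C had a log2 fold change of -1.41 in the same libraries. AURKA_E003 (chr20:54945716-54948463, minus strand) stood at 2.64, 2.54 and 1.89 CPM against 0.691 and 0.483 CPM (-2.02, adjusted p = 2.88e-08), and BUB1_E018 had a log2 fold change of -2.30. PLK1_E008 (chr16:23700067-23700558, plus strand) stood at 2.40, 3.17 and 2.81 CPM against 1.30 and 1.27 CPM (-1.12), while the counts of its gene were higher in both OSMI-2 libraries than in DMSO. The exceptions were BUB1_E008, at 0.221, 0.162 and 0.151 CPM against 0.356 and 0.228 CPM (0.67, adjusted p = 0.192), and CENPF_E014 (-0.57, adjusted p = 0.229).

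Relative to the counts of their gene, 25 of 26 introns fell in limma's test (89.2% of all introns called, 89% lower), all but BUB1_E008. The medians were -1.45 for replication and -2.14 for mitosis genes, against -1.63 for all introns. AURKA_E003 held 4.0%, 7.18% and 3.94% of the gene's counts in DMSO and 0.899% and 0.723% in OSMI-2. PLK1_E008 held 1.49%, 1.12% and 0.968% against 0.264% and 0.266%. In both introns OSMI-2 lay below every DMSO library.

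These 6 h controls themselves differed from 2 h. In DMSO of the OSMI-2 experiment all 24 introns tested rose from 2 h to 6 h, against 90.3% of all introns called and 88.5% higher, with medians of 1.42 in replication genes, 1.80 in mitosis genes and 1.70 over all introns. Relative to their gene 25 of 26 rose (89.6% called, 88.3% higher), again without BUB1_E008. AURKA_E003 went from 0.467%, 0.615% and 0.982% of its gene's counts at 2 h to the 6 h values above. Its OSMI-2 shares at 6 h, 0.899% and 0.723%, were below those of their own controls and inside the DMSO range at 2 h. Whether this belongs to the drug, the time or the preparation of the DMSO libraries at 6 h cannot be told apart.

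OSMI-2 at 2 h changed none of the 19 introns past the test (0.129% of all introns called by edgeR), and DESeq2 called none. None had an unadjusted p under 0.05 in edgeR, against 92 of all 3107 introns. Relative to their gene none of 20 passed (0.0643% called), and 1 had an unadjusted p under 0.05 in limma, against 140 of all 3111 introns. TMG at 2 h raised 6 of 24 introns, against 9.81% of all introns called and 9.69% higher. These were CDC6_E012, from 0.378, 0.708 and 0.513 CPM to 1.16, 1.69 and 0.918 CPM (1.20 ± 0.24 SE, adjusted p = 0.00189 in edgeR), MCM4_E017 (0.96), MCM5_E016 (0.93), MCM3_E013 (0.64), MCM5_E017 (0.61) and AURKA_E003 (0.59). MCM5_E016 and MCM5_E017 adjoin in 1 intron and are not independent, and the median was 0.52 for replication, 0.41 for mitosis and 0.29 for all introns.

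Relative to their gene none of the 24 passed at 2 h of TMG in limma (0.124% called). In that test 10 had an unadjusted p under 0.05, against 1028 of all 4031 introns. The authors' deposited table gives adjusted p-values of 0.00349 for MCM3_E013 and 0.00401 for MCM4_E017 in their own test of bin usage. TMG at 6 h changed none of 25 introns past the test (0.19% of all called by edgeR), and DESeq2 called none. In edgeR 6 had an unadjusted p under 0.05, against 331 of all 4219 introns. Relative to their gene none passed either (0.0957% called), and none had an unadjusted p under 0.05 in limma, against 215 of all 4181 introns. Without DMSO library b at 6 h of the TMG experiment, 5 introns passed, and the share of all introns called in that fit is not given here.

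In DMSO of the TMG experiment 11 of 25 introns rose from 2 h to 6 h. Of 15 introns in replication genes 10 rose, and of 10 in mitosis genes 1 did, against 21.9% of all introns called and 21% higher. The medians were 0.81 and 0.23, against 0.41 for all introns. MCM5_E016 (chr22:35817454-35817827, plus strand) went from 0.233, 0.339 and 0.409 CPM to 1.32, 1.76 and 1.48 CPM (2.21 ± 0.29 SE, adjusted p = 2.75e-09 in edgeR). Its neighbour MCM5_E017 (chr22:35817828-35819056) went from 0.952, 1.12 and 1.57 CPM to 3.77, 4.57 and 3.38 CPM (1.69 ± 0.22 SE, adjusted p = 8.30e-10). The gene MCM5 stood at 298, 279.8 and 284 CPM against 366, 297 and 306 CPM (0.17, adjusted p = 0.0771).

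MCM6_E007 (1.34), MCM4_E017 (1.13), CDC45_E019 (0.99), CDC6_E012 (0.99), MCM2_E007 (0.97), RRM1_E016 (0.81), MCM3_E013 (0.69) and MCM7_E004 (0.59) also rose. The intron of a mitosis gene that rose was CENPF_E014, from 0.148, 0.214 and 0.215 CPM to 0.440, 0.769 and 0.272 CPM (1.34, adjusted p = 0.00605 in edgeR), in a gene that rose itself. Relative to their gene, 7 of 15 introns in replication genes rose and none of 10 in mitosis genes passed in limma (15.4% of all introns called, 14.8% higher). Of those 10 none had an unadjusted p under 0.05, against 1324 of all 4077 introns. The medians were 0.85 and 0.05, against 0.40 for all introns. No test compares the lists, and DESeq2 called 8 introns in place of 11.

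Scaling over introns only sets the bulk of introns to no change. It left 5 of these introns past the test with OSMI-2 at 6 h (1 higher, 4 lower) and 2 higher with TMG at 2 h. Over time in DMSO it left 1 lower in the OSMI-2 experiment and 5 in the TMG experiment (4 higher, 1 lower). The shares of all introns called under this scaling are not given here.

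**Figure D5:**
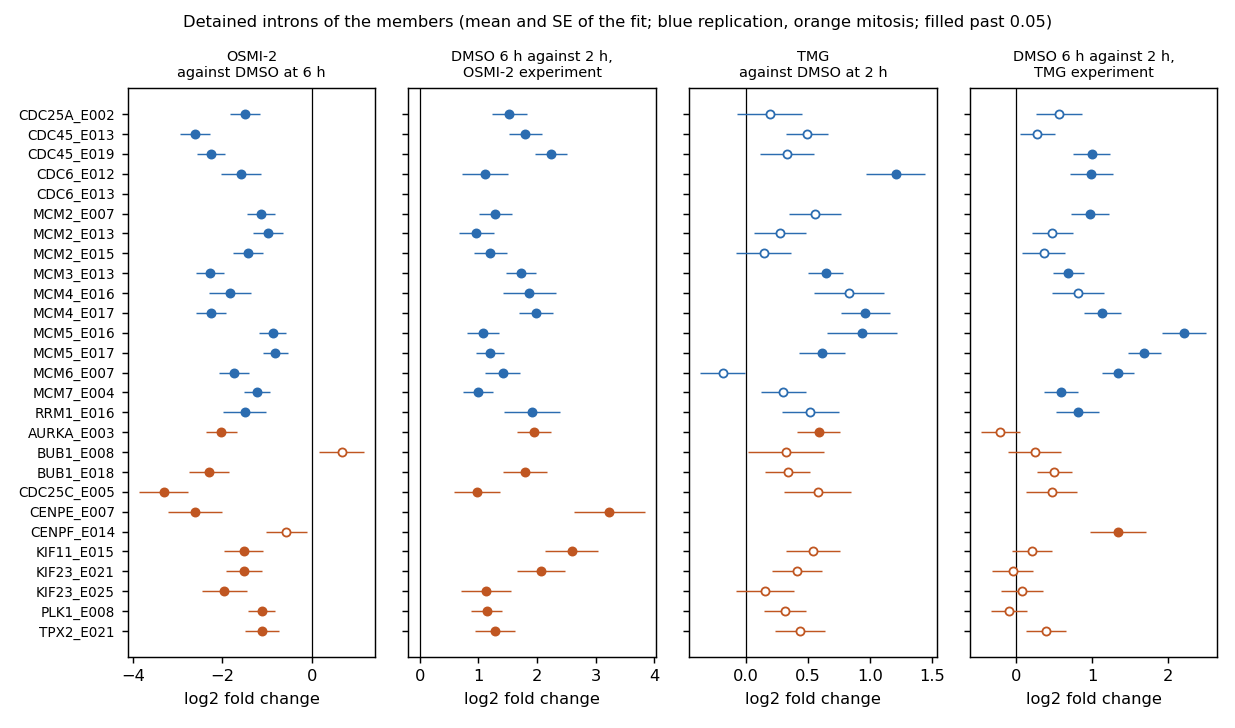
Log2 fold change (horizontal axes) with the standard error of the fit for each detained intron of the cell cycle genes that could be tested (rows), in 4 comparisons; blue is replication, orange mitosis, and filled points passed an adjusted p of 0.05. With OSMI-2 at 6 h 24 of 26 introns lie to the left of 0 past the test, over time in the DMSO of that experiment 24 of 24 lie to the right, and over time in DMSO of the TMG experiment 10 of 15 in replication genes and 1 of 10 in mitosis genes do. With scaling over introns only, 4, 0 and 4 of them do.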

How the data were processed

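RNA was sequenced from polyadenylated, stranded libraries of HEK293T cells, 23 of the 24 samples in the labels. Reads were aligned with STAR to hg19, per the submitters' processing notes, which give no version. Per the file headers, the authors deposited whole-number counts per bin beside their own adjusted p-values and log2 fold changes of bin usage, which are cited only as theirs. The use of strand in counting is not given in the sources used here.

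Counts of bins outside detained introns were summed per gene, scaled by TMM factors that took genes and introns in 1 table, and tested with edgeR 4.0.16 (quasi-likelihood, filterByExpr, Benjamini-Hochberg over all genes, threshold 0.05), in R 4.3.3. All 39 genes passed the filter in all 6 comparisons. Introns were tested likewise, and relative to their gene with limma 3.58.1 on log2 of (intron count + 1)/(gene count + 1), at mean counts of at least 10. Each fit used the libraries compared, and DESeq2 1.42.0 was an alternative, as were other scalings, GC correction, all libraries in 1 fit and leaving out each library. Fits were tested on simulated data with a fixed spread that was not estimated from these libraries. How the fits do on replicates as unlike as these was therefore not tested. Replicate pairs differed beyond sampling noise (chi-square per degree of freedom 4.27 to 297). In TMG at 6 h it was 68.3 and 61.8 for the pairs with library b and 4.77 for a with c. CPM values are deposited counts per 1000000 scaled counts, computed within each comparison.

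The members, lists and tests were chosen with earlier results of these data known. Named per comparison were up to 4 genes of each list with the smallest adjusted p past the threshold, or the 2 with the smallest p where fewer than 2 passed, and 10 cell cycle genes and 6 regulators throughout.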

Additional observations from a re-analysis of the deposited data

Results flagged for a closer look

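In 6 genes the response to OSMI-2 at 6 h differed from that to TMG at 6 h, by a test of the difference of differences in edgeR: CDC25C by -1.43, CDT1 by 1.37, PLK1 by 1.08, CDC25B by 1.02, TPX2 by 0.90 and CDC45 by -0.86 on the log2 scale. That is 6 of 39 genes, a smaller share than the 19.9% of all genes called. None passed without OSMI-2 library b, 33 did without DMSO library a at 6 h of the OSMI-2 experiment, and 3 did with scaling over genes only. The spread in this test was estimated over the libraries of both experiments together. No single-group outlier was looked for, since every group holds 3 libraries or fewer.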

How the results depend on the processing

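With all libraries of both experiments in 1 fit, the calls among the 39 genes were 21 with OSMI-2 at 6 h (47% of all genes called). They were 0 and 0 with TMG at 2 h and 6 h (0% and 0.0157% of all genes). Over time in DMSO they were 25 and 2 in the OSMI-2 and TMG experiments (48.2% and 14.4% of all genes). In that fit 1 intron was called with TMG at 2 h. With the GC trend removed the calls among the 39 genes were 12 with OSMI-2 at 6 h (22.1% of all genes called) and 23 with TMG at 6 h (13.2%). DESeq2 called 5 and 11 genes with TMG at 2 h and 6 h, 6 over time in DMSO of the OSMI-2 experiment, and 3 introns with TMG at 2 h. Scaling over genes only gave 5 genes with TMG at 6 h and 1 over time in DMSO of the OSMI-2 experiment (9.16% of all genes called over that time). It gave 3 for the difference between drugs at 6 h (8.25% of all genes), where median-of-ratios scaling gave 13. Scaling over introns only called 5 introns with OSMI-2 at 6 h, 2 with TMG at 2 h, and 1 and 5 over time in DMSO of the OSMI-2 and TMG experiments. The authors' deposited test called 2 introns with TMG at 2 h. Leaving out each library in turn gave, for genes, 0 to 25 (OSMI-2 at 6 h), 1 to 3 and 1 to 13 (TMG at 2 h and 6 h), 1 to 22 and 16 to 23 (time in DMSO, OSMI-2 and TMG experiments), 0 to 33 (drugs at 6 h), 0 to 11 (OSMI-2 times), and 0 to 1 (TMG times, and drugs at 2 h). For introns it gave 21 to 24 (OSMI-2 at 6 h), 3 to 8 and 0 to 5 (TMG at 2 h and 6 h), 24 to 26 and 7 to 12 (time in DMSO). For introns relative to their gene it gave 23 to 25 (OSMI-2 at 6 h), 23 to 26 and 4 to 8 (time in DMSO). OSMI-2 at 2 h stayed at 0 throughout. Counts in this section without a share of all genes or introns show only how calls moved with the setting. They do not show whether these genes or introns stand out. Where leaving out a library left 1 OSMI-2 library at 6 h, that library was assumed to vary like the DMSO group. Over named features, 2165 recomputed values kept their side of the threshold, 269 lost the call and 85 gained it. Direction was compared only where either fit called the feature, so uncalled values among the 2165 may have changed sign. Of the values compared for direction 3 turned. These were CDC20 (0.16) and FOXM1 (0.026) over time in DMSO of the TMG experiment with the GC trend removed. The third was CDC25A_E002 over time in DMSO of the OSMI-2 experiment with scaling over introns only (-0.12). The count of genes outside the DMSO range without DMSO library a was added after seeing the data. The cause of these changes was not tested. No paired analysis was possible because the columns carry letters in place of the replicate numbers of the labels, and no label says that libraries with the same letter belong together. CDC6_E013 had too few counts to test.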
